A study of Homo sapiens with 4 samples.

Results

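The genes described here lie on the short arm of chromosome 12, bands p12 to p11, next to ARHGDIB, the gene that encodes RhoGDI2. The list has 34 genes, from STRAP on the telomere side to YARS2 near the centromere, out of 19775 genes named by single-gene probe sets of the array. A gene was read from its probe set with the highest mean over the 4 arrays and kept if that mean was at least 4.64 on the log2 scale. By this rule 29 of the 34 genes were kept and 5 were not (LMO3, KCNJ8, SOX5, SSPN and TMTC1). The lowest kept gene, AMN1, had a mean of 6.39, and the highest gene left out, LMO3, had a mean of 4.45. The list was drawn up with the difference between the lines along this stretch already known, so that difference is given as a description. The calls of a fit across the whole array are listed beside it, and no support is drawn from them.

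UM-UC-3 is an established human bladder cancer cell line. One group, GFP-RhoGDI2, stably carried RhoGDI2 tagged with GFP (green fluorescent protein), and the control group, GFP, stably carried GFP from the empty vector; both had been selected with puromycin and sorted for fluorescence. Each group had 2 arrays, A and B, with A prepared at the same time in both groups and B at another time. Nothing in the labels says that A and B came from separate transfections, so an effect of making a line cannot be told apart from an effect of the introduced gene.

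A stretch of chromosome carries genes of unrelated function that share a DNA copy number, which was not measured here. ARHGDIB sits just outside the STRAP to YARS2 interval on its telomere side. The 34 genes encode enzymes of lactate, amino acid and lipid metabolism, calcium and potassium channels, proteins of vesicle traffic and of the Hippo-related kinase branch, chromatin and Mediator factors, RNA-binding and nuclear import proteins, and proteins of mitochondrial translation.

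Promoter sequences are shown for the 3 kept genes with the lowest difference between the lines and the gene with the highest, among those in the RefSeq promoter table, GRCh38.p14, which held 25 of the 29 kept genes. Each is the 250 bases before the annotated start, written 5′ to 3′ on the strand of the gene. The windows are chr12:19129483-19129732 (plus strand) for PLEKHA5, chr12:27244036-27244285 (plus strand) for STK38L, chr12:27710582-27710831 (plus strand) for MRPS35 and chr12:31729175-31729424 (minus strand) for AMN1. Capitals mark the GC box letters GGGCGG on either strand.
PLEKHA5: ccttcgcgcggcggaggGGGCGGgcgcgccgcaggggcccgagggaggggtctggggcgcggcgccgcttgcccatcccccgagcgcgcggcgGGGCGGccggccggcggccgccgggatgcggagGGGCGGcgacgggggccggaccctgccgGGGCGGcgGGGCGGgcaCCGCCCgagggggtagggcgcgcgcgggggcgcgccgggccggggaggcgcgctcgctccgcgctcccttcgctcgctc
STK38L: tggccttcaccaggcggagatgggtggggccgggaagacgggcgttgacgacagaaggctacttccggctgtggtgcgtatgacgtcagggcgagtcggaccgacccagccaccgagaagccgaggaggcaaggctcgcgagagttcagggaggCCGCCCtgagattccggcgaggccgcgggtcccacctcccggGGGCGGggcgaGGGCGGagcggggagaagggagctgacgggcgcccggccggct
MRPS35: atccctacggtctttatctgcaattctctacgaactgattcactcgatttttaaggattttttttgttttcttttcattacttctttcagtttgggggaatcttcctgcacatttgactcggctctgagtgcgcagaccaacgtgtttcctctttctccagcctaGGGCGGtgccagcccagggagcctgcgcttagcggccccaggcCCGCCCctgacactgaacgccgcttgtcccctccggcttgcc
AMN1: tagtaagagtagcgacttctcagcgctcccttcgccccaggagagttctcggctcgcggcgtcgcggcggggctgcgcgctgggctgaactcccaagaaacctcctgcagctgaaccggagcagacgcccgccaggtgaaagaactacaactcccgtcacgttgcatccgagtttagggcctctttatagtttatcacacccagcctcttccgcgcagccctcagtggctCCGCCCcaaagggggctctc
The base composition of these windows differed widely, with a G and C content of 87.6% for PLEKHA5, 72% for STK38L, 52.8% for MRPS35 and 62% for AMN1. PLEKHA5 held 6 matches to GGGCGG, STK38L 3, MRPS35 2 and AMN1 1, so the letters stood before genes that were lower and before the gene that was higher. Across the kept genes 19 of 25 windows (76%) held GGGCGG, against 67.0% of the 9834 tested genes in the table and 42.6% of all 35116 promoters. The letters CCAAT, searched on both strands, were in 6 of 25 windows (24%), against 35.0% of tested genes and 32.0% of all promoters. The E-box CACGTG, the same on both strands, was in 0 of 25 windows, against 9.04% of tested genes and 6.34% of all promoters. The median G and C content was 64.4% for the kept genes and 65.2% for tested genes. These are matches to letters within a fixed window, and no binding was measured.

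The arrays gave log2 expression values made with RMA, and their medians ran from 4.624 to 4.647. Arrays have no read depth, and their number limits the precision. ARHGDIB checked the labels: the brightest of its 3 probe sets gave 11.94 and 11.58 in GFP-RhoGDI2 cells, against 6.51 and 6.27 in GFP cells. The other ARHGDIB probe sets differed by 0.94 and by -0.02 (log2, -0.27 in A and 0.24 in B for the last), and which of the 3 match the construct was not analysed here. Of 13 urothelial and epithelial markers, KRT7, KRT8, KRT18 and GATA3 had means above the filter level of 4.637, the median over all probe sets. The uroplakin genes UPK1A, UPK1B, UPK2 and UPK3A, EPCAM, CDH1, KRT5 and KRT19 did not, and KRT17 had no single-gene probe set. The log2 differences were -1.23 for KRT8, -0.59 for KRT18, -0.20 for GATA3 and -0.15 for KRT7, and 0.65 for UPK1A below that level. KRT8, KRT18 and KRT7 themselves lie on chromosome 12, outside the interval. The summed level of the 12 measured markers was 62.08 to 63.54 in GFP-RhoGDI2 arrays and 64.48 to 65.30 in GFP arrays; its part in the results was not tested. Of 7 measured blood cell markers 0 had a mean above that level, of 4 endothelial markers 1 did (PECAM1, difference -0.07) and of 5 fibroblast markers 1 did (COL1A1, difference 0.07).

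Most kept genes of the interval were lower in GFP-RhoGDI2 cells. In bulk RNA, less RNA per cell and fewer expressing cells cannot be told apart. The log2 difference, GFP-RhoGDI2 minus GFP, was below 0 in both preparations for 26 of 29 genes, against 37.7% of the 12123 genes tested across the array. It was above 0 in both for 2, AMN1 and DENND5B (33.7% of all genes), and FAR2 had differences of 0.000566 in A and -0.21 in B. The median difference was -0.26 (a level 16.3% lower), with -0.22 in preparation A and -0.26 in B, against a median of -0.01 over all genes tested. The quartiles of the differences were -0.45 and -0.14, and 12 of 29 lay at or below -0.3, against 9.93% of all genes. The arrays of the groups did not overlap for 25 of the 29 genes. Of those 25, 23 were lower in GFP-RhoGDI2 cells (29% of all genes) and 2 were higher (25.6% of all genes). The arrays overlapped for PPFIBP1, KLHL42, FAR2 and BICD1.

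**Figure D1:**
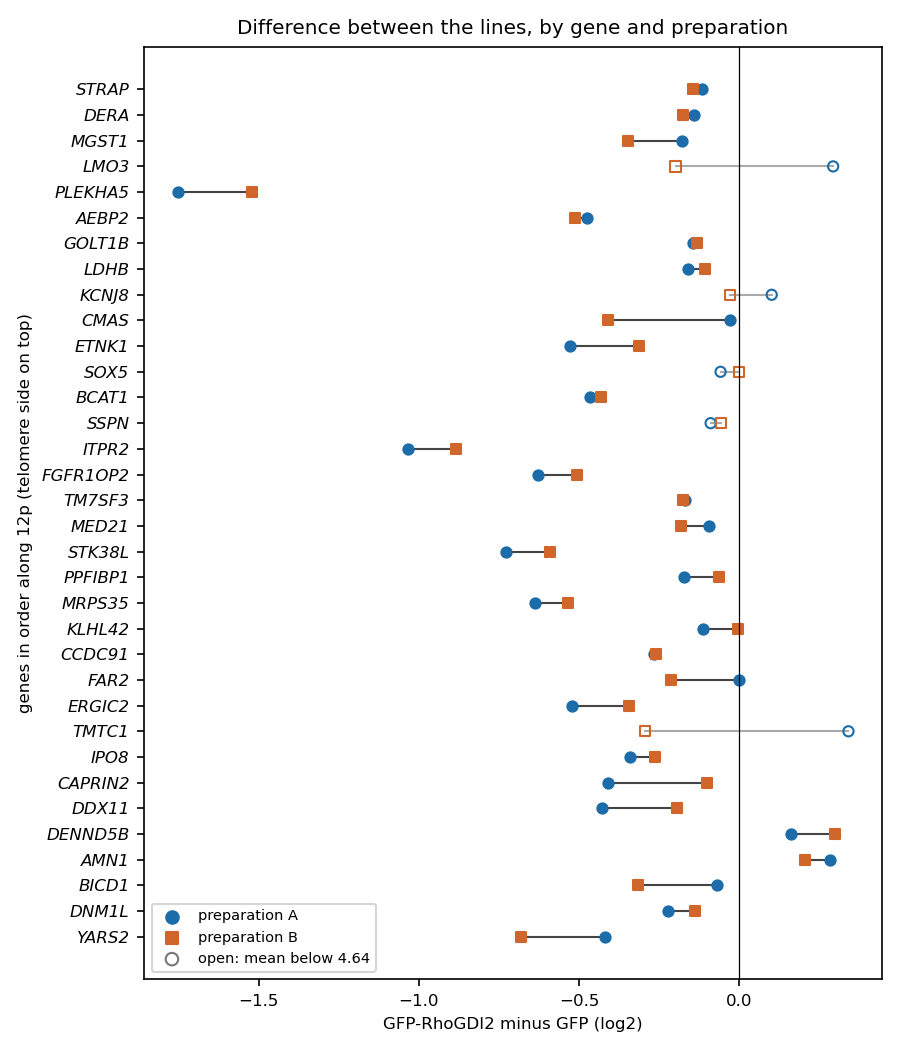
The log2 difference, GFP-RhoGDI2 minus GFP, is on the horizontal axis for all 34 genes in their order along 12p, with a circle for preparation A and a square for preparation B; open symbols are the 5 genes whose mean was below 4.64. The kept genes lie left of 0 apart from AMN1, DENND5B and the preparation A value of FAR2, and PLEKHA5 and ITPR2 stand farthest to the left.

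In the limma fit with preparation as a block, adjusted over all probe sets tested, 8 of the 29 genes were called at adjusted p under 0.05, all lower: PLEKHA5, ITPR2, STK38L, MRPS35, FGFR1OP2, YARS2, AEBP2 and BCAT1. Of all genes tested, 8.17% were called: 3.35% lower and 4.83% higher. Since the interval was picked on this contrast, nothing is read from that count. Without the block 5 of the 8 were called, beside 5.29% of all genes. With 1 array left out, also without the block, a group keeps a single array. Fewer genes were then called, among the 29 and over all genes alike. The median difference lay between -0.26 and -0.23 in the fits with 1 array left out. Omission of the block alone cannot change that median.

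Proteins of vesicle traffic, organelles and signalling make up 12 of the kept genes, of which 10 were lower in both preparations and 2 higher, with a median difference of -0.19. PLEKHA5, a protein with a pleckstrin homology domain that binds membrane phosphoinositides, had log2 levels of 5.52 and 5.90 in GFP-RhoGDI2 cells, against 7.27 and 7.42 in GFP cells. Both GFP-RhoGDI2 arrays lay more than 1 log2 unit below both GFP arrays, and the mean difference was -1.64 (SE 0.104), a level 67.8% lower. It was the 1 kept gene with a change of at least 2-fold. Its other passing probe set, at a similar mean level of 6.35, differed by -0.17 (-0.24 in A and -0.10 in B), so the size of the fall depends on the probe set. Both passing probe sets are of classes that can match several transcripts; another PLEKHA5 probe set lay below the filter level.

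STK38L encodes NDR2, a kinase related to the Hippo pathway kinases LATS1 and LATS2. It read 8.44 and 8.60 in GFP-RhoGDI2 cells, against 9.17 and 9.18 in GFP cells. The GFP arrays were nearly equal and both GFP-RhoGDI2 arrays were lower, by 0.73 in A and 0.59 in B (log2 differences -0.73 and -0.59). A further STK38L probe set gave -0.78. FGFR1OP2, first known as a fusion partner of FGFR1 in blood cancers, read 8.70 and 9.04 in GFP-RhoGDI2 cells, against 9.32 and 9.55 in GFP cells. In both groups the B array was the higher one, by less than the gap between the groups, and the mean difference was -0.57. This rests on probe sets of classes that can match several transcripts. Without those classes the FGFR1OP2 difference was -0.24 and was not called, and its other passing probe set outside them gave 0.03. ERGIC2, a membrane protein of the compartment between endoplasmic reticulum and Golgi, read 10.83 and 11.09 in GFP-RhoGDI2 cells, against 11.35 and 11.43 in GFP cells. All 4 of its passing probe sets were lower, with differences from -0.43 to -0.30.

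The genes with higher levels in GFP-RhoGDI2 cells stood side by side in this list. AMN1, whose yeast counterpart antagonises mitotic exit, read 6.48 and 6.55 in GFP-RhoGDI2 cells, against 6.19 and 6.34 in GFP cells. Its gap of 0.24 was small, and the lower GFP-RhoGDI2 array exceeded the higher GFP array by about the spread within a group. DENND5B, an activator of Rab GTPases, read 7.57 and 7.77 in GFP-RhoGDI2 cells, against 7.41 and 7.47 in GFP cells. Its mean difference was 0.23, and 3 of its 4 passing probe sets were higher while 1 differed by -0.14. The DENND5B difference was 0.13 without the GFP-RhoGDI2 B array and 0.07 when its probe sets were averaged. Neither gene was called.

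The other genes of this role lay between -0.26 and -0.06. CCDC91, a partner of the GGA adaptors at the trans-Golgi network, differed by -0.26, BICD1, an adaptor of the dynein motor, by -0.19, and DNM1L, the GTPase of mitochondrial fission, by -0.18. GOLT1B, a Golgi transport protein, differed by -0.14, the liprin PPFIBP1 by -0.12 and KLHL42, an adaptor of a cullin ubiquitin ligase, by -0.06. The last of these, with PPFIBP1 and BICD1, had overlapping groups. The other passing KLHL42 probe sets gave -0.39 (-0.43 in A and -0.35 in B) and -0.10, and neither was called. Probe sets of PPFIBP1 differed: its 1 passing probe set outside the classes that can match several transcripts gave -0.53 in A and -0.56 in B and was called lower, while its brightest was at -0.0012 without the GFP-RhoGDI2 A array.

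**Figure D2:**
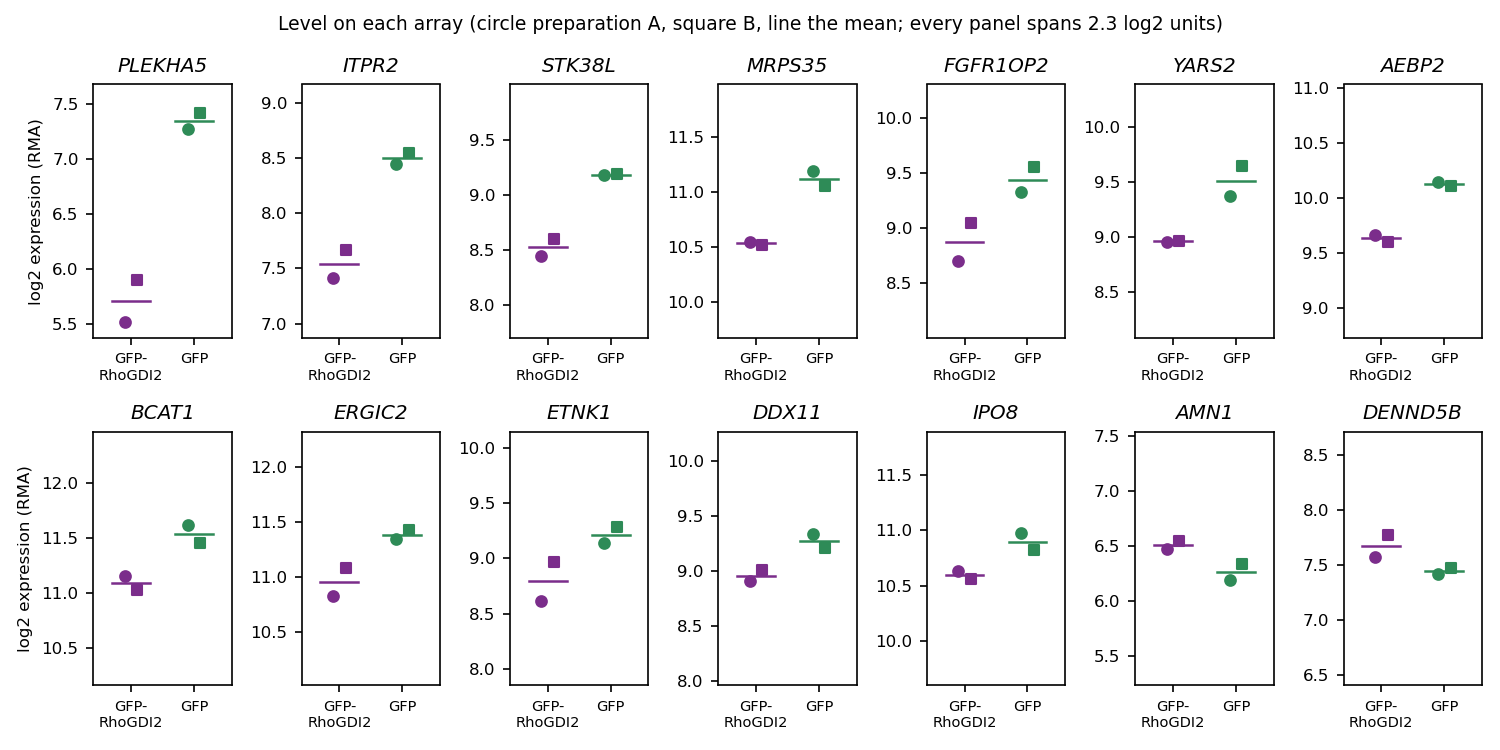
Each panel plots the log2 level of one gene on the 4 arrays, GFP-RhoGDI2 left and GFP right, with circles for preparation A, squares for B and a line at the group mean; every panel spans the same range. The first 12 genes have lower GFP-RhoGDI2 means and the last panels, AMN1 and DENND5B, higher ones, and in none of the 14 panels do the groups overlap.

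The channel and membrane protein genes had 5 members, of which ITPR2 and TM7SF3 were kept. ITPR2 encodes an inositol trisphosphate receptor, a channel that releases calcium from the endoplasmic reticulum. It read 7.41 and 7.67 in GFP-RhoGDI2 cells, against 8.45 and 8.55 in GFP cells, a mean difference of -0.96 (SE 0.097), or 48.6% lower. All 4 of its passing probe sets were lower, and 3 of them gave differences of -1.01, -0.98 and -0.96, while the last gave -0.37. TM7SF3, a membrane protein, differed by -0.17 in A and -0.18 in B. That is its brightest probe set, of a class that can match several transcripts. Its other passing probe sets, outside that class, gave -0.40 and -0.28, and neither was called. KCNJ8, a potassium channel subunit, SSPN, a partner of the dystrophin complex, and TMTC1, a mannosyltransferase, were not kept.

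Both genes of mitochondrial translation were lower in GFP-RhoGDI2 cells in both preparations. MRPS35, a protein of the small mitochondrial ribosomal subunit, read 10.55 and 10.52 in GFP-RhoGDI2 cells, against 11.19 and 11.05 in GFP cells, a mean difference of -0.59. YARS2, the mitochondrial tyrosyl-tRNA synthetase, read 8.96 and 8.96 in GFP-RhoGDI2 cells, against 9.38 and 9.65 in GFP cells, a mean difference of -0.55. The GFP-RhoGDI2 arrays agreed closely for both genes, while the GFP arrays of YARS2 lay 0.27 apart. Each of these genes has a single passing probe set, so no further probe set bears on them.

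All 7 metabolic enzyme genes were kept, with differences from -0.45 to -0.11 and a median of -0.22. BCAT1, the cytosolic aminotransferase of branched-chain amino acids, read 11.15 and 11.03 in GFP-RhoGDI2 cells, against 11.62 and 11.46 in GFP cells, a mean difference of -0.45. Its other 3 passing probe sets gave -0.42, -0.29 and -0.27. Those at -0.29 and -0.27 were uneven between preparations, at 0.003 and -0.03 in A and -0.58 and -0.50 in B. ETNK1, which phosphorylates ethanolamine for membrane phospholipid synthesis, read 8.61 and 8.97 in GFP-RhoGDI2 cells, against 9.14 and 9.28 in GFP cells. Its difference of -0.42 was not called, and leaving out the GFP-RhoGDI2 A array gave -0.24, leaving out B of that line -0.60. All 6 of its passing probe sets were lower, with differences from -0.83 to -0.35, and 3 of the other probe sets were called.

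LDHB, with the highest mean of the kept genes, encodes the lactate dehydrogenase subunit that favours pyruvate formation. LDHB read 13.85 and 13.87 in GFP-RhoGDI2 cells, against 14.01 and 13.98 in GFP cells, a difference of -0.13 with no overlap. MGST1, a membrane-bound glutathione transferase, differed by -0.26, CMAS, which activates sialic acid, by -0.22, and DERA, an aldolase that breaks down deoxyribose phosphate, by -0.16. CMAS was uneven between preparations, at -0.03 in A and -0.41 in B. FAR2, a reductase that makes fatty alcohols, differed by -0.11. None of these 5 genes was called, and both LDHB probe sets are of a class that can match related sequences.

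Of the 4 genes of transcription and chromatin, AEBP2 and MED21 were kept. AEBP2, a cofactor of the Polycomb repressive complex PRC2, read 9.67 and 9.60 in GFP-RhoGDI2 cells, against 10.14 and 10.11 in GFP cells, a mean difference of -0.49. The arrays within each group lay within 0.07 of each other. MED21, a subunit of the Mediator complex, differed by -0.14. LMO3 and SOX5, a LIM-only cofactor and an SRY-related transcription factor, were not kept, and the largest absolute difference among the 5 genes left out was 0.07.

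The 4 genes of RNA, DNA and nuclear import were all kept and all lower in both preparations, with a median of -0.28 and 0 called. IPO8, an importin, read 10.63 and 10.56 in GFP-RhoGDI2 cells, against 10.97 and 10.82 in GFP cells, a difference of -0.30. DDX11, a DNA helicase of sister chromatid cohesion, read 8.90 and 9.01 in GFP-RhoGDI2 cells, against 9.33 and 9.21 in GFP cells, a difference of -0.31. DDX11 has near-identical copies in the genome and its 4 passing probe sets are all of classes that can match several transcripts, so its level is uncertain. CAPRIN2, an RNA-binding protein, differed by -0.41 in A and -0.10 in B. STRAP, a WD-repeat protein that binds TGF-beta receptors and the SMN complex, differed by -0.13.

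The choice of probe set left the direction of most genes in place. Of 79 passing probe sets of the 29 genes, 72 were lower in GFP-RhoGDI2 cells and 7 higher, with a median difference of -0.28. Over all genes tested, each by its brightest probe set, 52.6% had a mean difference below 0. For 19 of the 23 genes with more than 1 passing probe set, all were lower by the mean of the preparations. Some of these probe sets were near 0 with opposite signs in A and B, as for GOLT1B (-0.006) and PPFIBP1 (-0.007 and -0.009). DENND5B, FAR2, FGFR1OP2 and BICD1 had probe sets in both directions.

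**Figure D3:**
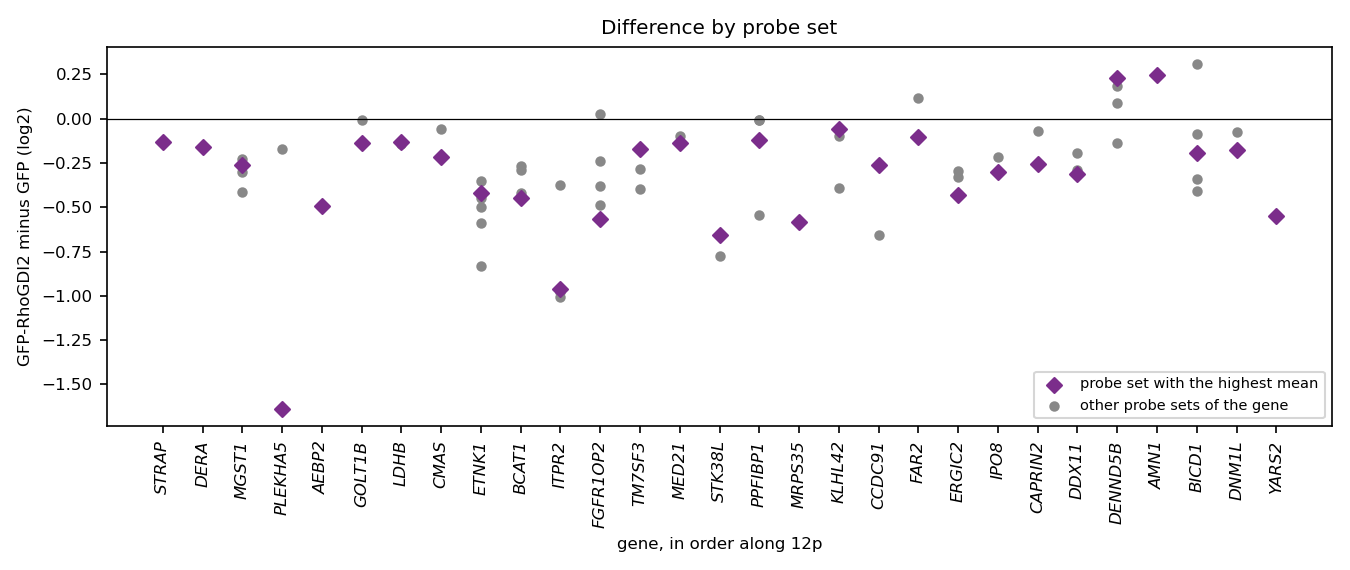
The log2 difference, GFP-RhoGDI2 minus GFP, is plotted for each of the 79 passing probe sets, with genes in their order along 12p; the diamond is the probe set with the highest mean and grey points are the gene's others. Of the 79, 72 lie below 0, and the probe sets of PLEKHA5 lie far apart.

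The interval holds further genes that the list leaves out. Of 43 other named genes between STRAP and YARS2 in the RefSeq order, 14 passed the level filter, with a median difference of -0.24. Of these 14, 9 were lower in both preparations (37.7% of all genes) and 2 were higher in both (33.7% of all genes). The fit called 3 lower and 1 higher, against 3.35% and 4.83% of all genes. The genes called lower were RESF1, a regulator of endogenous retroviral elements (-0.78), C2CD5, a calcium-binding protein of vesicle traffic (-0.52), and RASSF8, of the Ras-association family (-0.48). The gene called higher was BHLHE41, a repressor of the circadian clock that binds E-box sequences. It read 9.27 and 9.16 in GFP-RhoGDI2 cells, against 7.72 and 7.41 in GFP cells, 3.14-fold higher (log2 difference 1.65). It lies among genes that were lower, between RASSF8 and ITPR2 in the order of tested genes.

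The nearest gene on the telomere side also went against the interval. EPS8, an actin-capping adaptor that neighbours STRAP, had a log2 difference of 2.83. ARHGDIB, the introduced gene, had a difference of 5.37 by its brightest probe set. The part of the construct in that value was not analysed. The 40 tested genes nearest on the telomere side, FOXJ2 to EPS8 with ARHGDIB among them, had a median of -0.18. Of these, 31 were lower in both preparations, 3 were called lower and 3 higher. The 40 nearest on the other side, PKP2 to CACNB3, had a median of -0.10. Of these, 21 were lower in both, 6 were called lower and 2 higher. Over all genes, 37.7% were lower in both, 3.35% were called lower and 4.83% higher. Levels slightly below the GFP line were thus not limited to the interval: the 614 tested genes of chromosome 12 outside it had a median of -0.14, and 379 of them (61.7%) were lower in both preparations. Beyond both flanks the median of 534 genes was also -0.14. Chromosome 12 as a whole, at -0.14 over 657 genes, had the lowest median of 23 chromosomes, the next being chromosome 16 at -0.08, with the highest at 0.10. Within the interval, the medians were -0.24 for the first 10 kept genes from the telomere side, -0.22 for the next 10 and -0.26 for the last 9, with no steady trend.

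**Figure D4:**
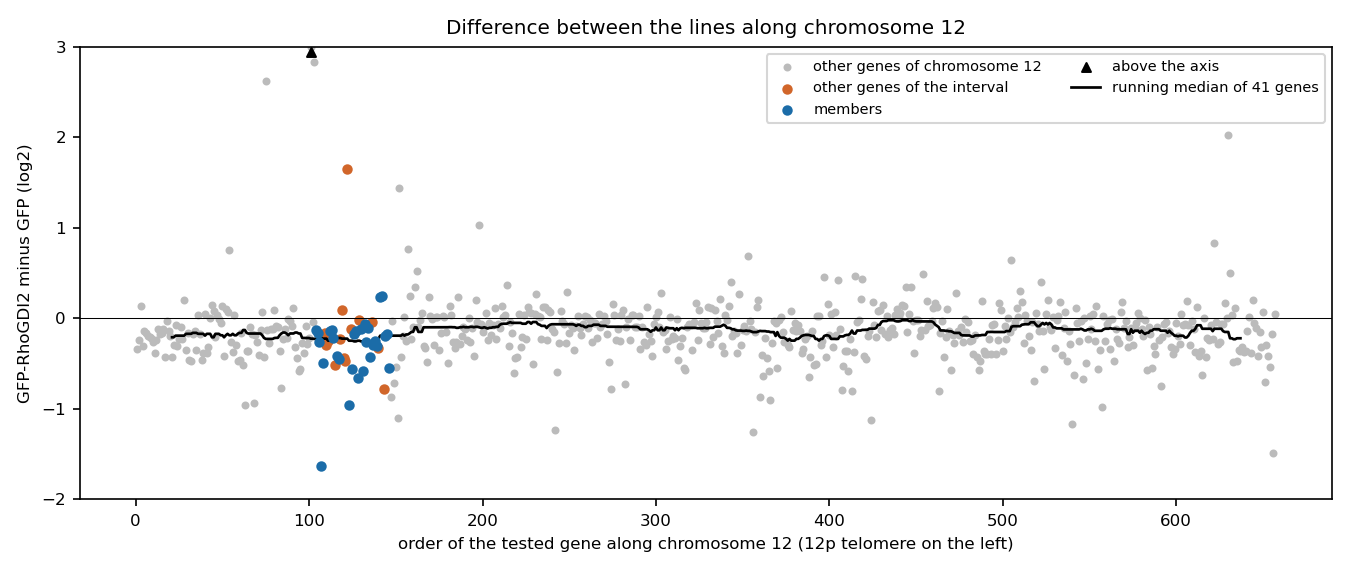
Each point is 1 of the 657 tested genes of chromosome 12 by its order from the 12p telomere, with the log2 difference, GFP-RhoGDI2 minus GFP, on the vertical axis; the line is a running median of 41 genes and the triangle is ARHGDIB, above the axis. The running median stays below 0 along the chromosome shown and is between -0.26 and -0.18 over the interval, where BHLHE41 stands well above its neighbours.

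The rule used the level of a gene, as a minimum, and the level is therefore described only. Of the kept genes, 26 of 29 had a mean above the median of all tested genes, and their median level was 9.65, against 7.80 over all other genes. These are levels of different probe sets, whose brightness per molecule differs, so no gene's abundance is set against another's. Across the 29 genes the level and the difference had a Pearson correlation of 0.19 and a Spearman correlation of -0.00099, given as a description over genes measured on the same arrays.

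The difference between preparations, B minus A, was not used to choose the genes. Its median over the 29 genes was 0.08, with 0.06 in GFP-RhoGDI2 cells and 0.08 in GFP cells, against -0.02 over all tested genes. In the same limma fit 0 of the 29 genes and 0 of 12123 (0%) had an adjusted p under 0.05 for this difference. At an unadjusted p under 0.05 there were 4 of the 29 genes (BICD1, FGFR1OP2, PLEKHA5 and KLHL42), against 10% of all genes. BICD1, by its brightest probe set, was the lowest, with 8.12 in B and 8.84 in A in GFP-RhoGDI2 cells, and 8.43 in B and 8.91 in A in GFP cells. That is a B minus A difference of -0.60 (limma adjusted p = 0.369), lower in B in both lines. With an intensity trend in limma it was called (adjusted p = 0.00359), 1 of 190 genes called there (1.57%). This holds for that probe set only: of the other 4 passing BICD1 probe sets, 3 were higher in B in both lines, with B minus A from 0.09 to 0.50 in GFP-RhoGDI2 cells and from 0.10 to 0.29 in GFP cells. The last was at 0.83 in GFP-RhoGDI2 cells and -0.29 in GFP cells.

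**Figure D5:**
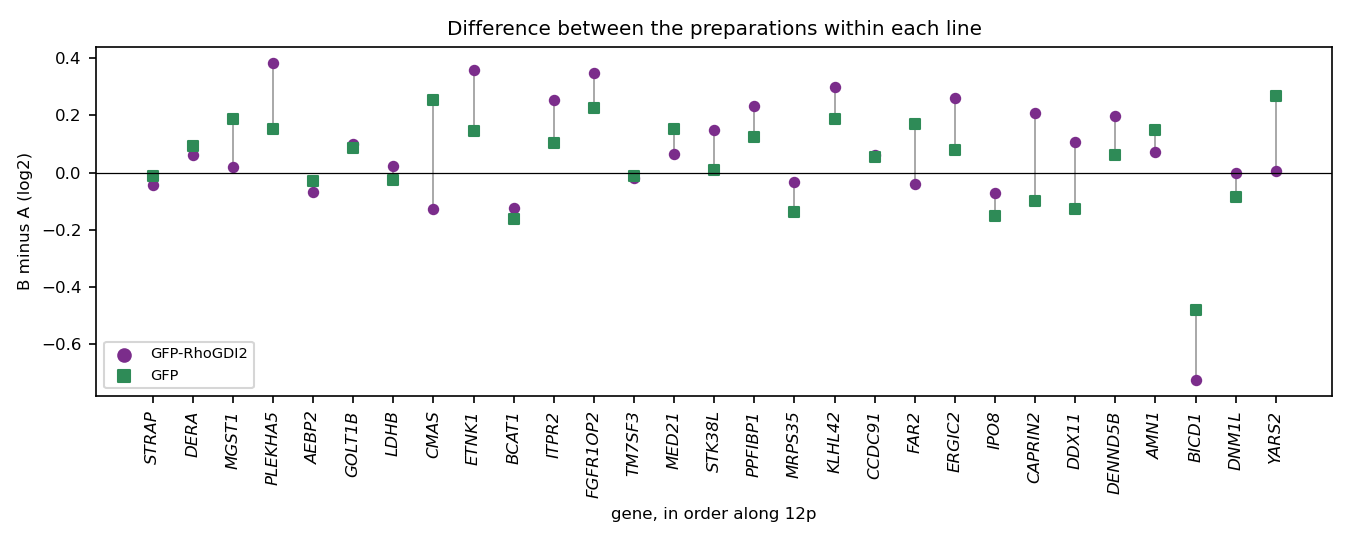
For each of the 29 kept genes in order along 12p, the log2 difference of preparation B minus A is plotted within GFP-RhoGDI2 cells (circle) and within GFP cells (square). BICD1, by its brightest probe set, stands apart below 0 in both lines, at -0.72 in GFP-RhoGDI2 cells and -0.48 in GFP cells, and the others lie between -0.16 and 0.38.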

How the data were processed

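The 4 arrays were Affymetrix HG-U133 Plus 2.0. The deposited values are log2 expression per probe set, which the authors derived with RMA, according to the submitters' processing notes; no RMA version is given in the sources used here. Groups came from the sample titles; the descriptions attached to GFP-RhoGDI2 samples are those of a control, against their title, source and genotype.

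Of 54675 probe sets, 62 controls were left out; the platform annotation named 1 gene for 41091, several for 1801, and did not list 11721. Probe sets with a mean at or above the median, 4.637 (27307 probe sets, 12123 genes), entered limma 3.58.1 in R 4.3.3 (lmFit, eBayes) with preparation as a block and Benjamini-Hochberg adjustment over all of them at 0.05. The fit left 1 residual degree of freedom, to which moderation added 4.71 (prior SD 0.101). The labels state the pairing; B minus A differences of the lines correlated at r = 0.264 across probe sets. Errors are SEs of that fit; n = 2 arrays per group. The fit was tested on simulated data. RefSeq GRCh38.p14 gave gene order through Entrez IDs (12110 of 12123 matched) and promoters.

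Members and lists were chosen with earlier results of these data known. Named genes were the 12 kept genes with the largest absolute difference, those with the largest rise, and called genes of the interval; the others follow by role. LDHB and BICD1 with array values, EPS8, the motifs, the split of the interval in 3 and the chromosome medians were chosen after values were seen. Alternatives were other filters, omission of an array or of the block, intensity-dependent prior variance, quantile normalization, other probe set choices and other thresholds.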

Additional observations from a re-analysis of the deposited data

Results flagged for a closer look

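FAR2, which encodes a fatty alcohol reductase, was the kept gene whose difference between the lines had opposite signs in the preparations. GFP-RhoGDI2 minus GFP was 0.000566 in A and -0.212 in B. The difference between the preparations was not tested, since each rests on 1 array per line.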

How the results depend on the processing

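The direction of 26 of the 29 kept genes was the same under all 11 alternatives that gave them a value. BICD1, FAR2 and KLHL42 changed sign under at least 1, and none of these 3 was called. Omission of the block, the intensity trend and the other filters leave the difference of a gene unchanged by design. Those settings therefore cannot test its direction. PLEKHA5 was at -0.64 when all its probe sets were averaged. Without probe sets that can match several transcripts, 25 of the 29 genes still had a value. Of these, 7 were called, beside 8.43% of the 9362 genes tested there. Of the 7, 6 are among the 8 and PPFIBP1 (-0.54) was added. PLEKHA5 had no passing probe set left in that setting, so it was not tested there. With an array left out, the median difference of the kept genes ran from -0.265 to -0.225, of the other genes of the interval from -0.332 to -0.171, of the telomere side from -0.209 to -0.146, of the other side from -0.151 to -0.0756, and the median B minus A from 0.0615 to 0.0805. With no filter on low values the first 4 of those medians were -0.186, -0.0431, -0.0933 and -0.031. Genes near the low end of the scale enter there. The 40 genes of each flank were picked anew from the passing genes in every setting. Under other filters or probe set choices the flanks therefore hold partly other genes, at other distances. Above the upper quartile of mean values the flanks were at -0.261 and -0.159. The telomere side was at -0.19 when probe sets of a gene were averaged and -0.203 without probe sets that can match several transcripts. The count of kept genes called, 8 in the fit with the replicate block, was 5 with no replicate block, 5 with no filter, 17 with an intensity trend, 16 when probe sets of a gene were averaged, 2 at adjusted p under 0.01 and 1 to 3 with an array left out. The count over all genes, 991, was 641, 695, 2879, 2314 and 243 under the same first 5 settings, 1876 above the upper quartile, 1971 at adjusted p under 0.10 and 215 to 421 with an array left out. The 17 and 16 calls stand beside 23.7% and 21.1% of all genes called, and the 2 at adjusted p under 0.01 beside 2.00%. With no filter, the 5 were counted over all 34 genes of the list, beside 3.51% of all genes. Above the upper quartile, 12 of the 27 genes of the list that passed were called, beside 25.2% of all genes. The cause of these moves in counts was not tested. Being lower in both preparations needs all 4 arrays, so that count was not run with one left out, and B minus A was not run with no replicate block. With 2 arrays per group and 1 residual degree of freedom, single small differences here are weakly measured.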
